A study of Mus musculus with 2 samples.

Results

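Cells with 15 or more counts of the chemokine genes *Ccl3* and *Ccl4* together were taken from single-cell RNA profiles of mouse brain microglia, and they made up 4293 of 42766 cells. A cell also had to hold fewer than 10 counts of *Cst7*, *Lpl* and *Spp1* together, which are markers of disease-associated microglia (DAM), fewer than 5 counts of the border macrophage genes *Mrc1*, *Pf4*, *Ms4a7*, *Cd163* and *Cbr2* together, and fewer than 100 counts of the choroid plexus gene *Ttr*. They were compared with 23914 cells that met the same 3 other limits and had no count of *Ccl3* or *Ccl4*, called reference cells here. A count is 1 unique molecular identifier (UMI), that is 1 captured RNA molecule.

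The microglia came from male and female PSAPP mice, a transgenic amyloid model whose brains develop plaques. From 9 months of age, mice received by oral gavage either the dual orexin receptor antagonist lemborexant (LEM, 30 mg/kg each day) or the methylcellulose vehicle alone (VEH) for 30 days, and brains were taken at 10 months. Cortex and hippocampus were dissociated mechanically in the cold, and live CD45lo CD11b+ cells were sorted. Each treatment was 1 library made from a pool of 5 mice, and no wild-type group is analysed here, so the amyloid genotype is common to all cells. With 1 library per treatment, treatment and pool cannot be told apart and no test between treatments exists. Intervals below are exact 95% intervals that cover counting error only.

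*Ccl3* and *Ccl4* encode the macrophage inflammatory proteins MIP-1α and MIP-1β, small secreted proteins that attract leukocytes. They act through G protein-coupled chemokine receptors, among them CCR1 for CCL3. Macrophages and microglia transcribe both genes within a short time of stimulation, largely through NF-kB, and microglia in ageing and amyloid-bearing brain are a known source of them.

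Both genes lie on mouse chromosome 11 (GRCm38). *Ccl3* is on the minus strand at chr11:83647844-83649355 and *Ccl4* on the plus strand at chr11:83662584-83664683, so that they are transcribed away from each other across 13228 bases that hold no other annotated gene. The 250 bases before the start site are shown for *Ccl3*, as a gene used to define these cells, and for *Csf1* and *Ier3*, which were among the genes at least 2-fold higher in these cells and whose windows hold the NF-kB consensus. They are taken from RefSeq (GRCm38.p6) and written 5′ to 3′ on the strand of the gene, from chr11:83649379-83649628 (minus), chr3:107760470-107760719 (minus) and chr17:35821463-35821712 (plus). The start sites are those of RefSeq. For *Ccl3* and *Ier3* they differ from the gene starts of GENCODE, the source of the gene coordinates above. Capitals mark the PU.1 core GAGGAA in *Ccl3*, beginning 33 bases before the start site, and the NF-kB consensus in *Csf1* and *Ier3*, beginning 154 and 92 bases before it. All 3 marked stretches match on the opposite strand, so the printed letters are the reverse complement of the motif.
Ccl3: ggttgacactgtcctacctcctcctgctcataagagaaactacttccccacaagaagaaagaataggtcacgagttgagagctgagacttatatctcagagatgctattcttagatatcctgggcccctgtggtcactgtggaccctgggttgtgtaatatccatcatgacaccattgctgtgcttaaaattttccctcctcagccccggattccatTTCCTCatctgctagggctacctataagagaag
Csf1: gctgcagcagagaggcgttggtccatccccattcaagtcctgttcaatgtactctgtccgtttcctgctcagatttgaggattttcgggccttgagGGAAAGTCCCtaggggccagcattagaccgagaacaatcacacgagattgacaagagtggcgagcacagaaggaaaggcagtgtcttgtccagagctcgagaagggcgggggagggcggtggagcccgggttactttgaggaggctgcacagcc
Ier3: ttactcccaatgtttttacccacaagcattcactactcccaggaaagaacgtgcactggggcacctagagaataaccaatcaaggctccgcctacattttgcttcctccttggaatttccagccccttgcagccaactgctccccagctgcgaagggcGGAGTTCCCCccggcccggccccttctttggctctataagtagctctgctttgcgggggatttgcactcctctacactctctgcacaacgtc

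Over windows from 250 bases before to 50 after the start site, searched on both strands with overlaps between motifs kept, the NF-kB consensus was found in 3 of 26 promoters of *Ccl3* and of 22 of the genes at least 2-fold higher in these cells, and in 4.51% of all 32851 promoters. The 3 belonged to *Csf1*, *Ier3* and *Ptchd1*. Of these, *Csf1* and *Ptchd1* were detected in under 10% of reference cells. The PU.1 core GAGGAA was in 10 of the 26 and in 28.3% of all promoters, and the AP-1 motif TGANTCA in 3 of the 26 and in 7.81%. Over the 12211 promoters of detected genes the shares were 5.06% for NF-kB, 27.1% for PU.1 and 4.90% for AP-1. The 26 windows covered 23 genes. The higher genes were picked from these same data, and 20 of the 29 reached the detection limit of 10% only in the chemokine-high cells. The motif shares are therefore a description and support no enrichment. *Ccl4* and 7 of the 29 higher genes, among them *Baiap2l2*, *Ccl2*, *Cd74* and *Cd83*, were not analysed here.

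The cells stood at the upper end of a continuous range. Within the 3 other limits, 57.8% of VEH and 57.5% of LEM cells had no count of either chemokine, 18.5% and 18.2% had 1 to 4, and 13.5% and 13.8% had 5 to 14. There was no gap at the limit, since 133 VEH and 190 LEM cells had 14 counts and 119 and 148 had 15. Counts of either chemokine also occurred in droplets rich in *Ttr*. Whether these droplets also held microglia was not tested. Of droplets with 100 or more *Ttr* counts, which mark choroid plexus, 49.0% in VEH (n = 49, median depth 9338 counts) and 35.0% in LEM (n = 143, median depth 8161) held at least 1 count, against 39.5% and 39.7% of cells with *Cst7*, *Lpl* and *Spp1* at 0 (median depth 5803 and 5870). With each cell thinned to 2000 counts, and shallower cells left out (16567 VEH and 22418 LEM cells within the limits, 47 and 136 *Ttr* droplets kept), the shares were 34% and 24.3% of *Ttr* droplets and 33.3% and 33.2% of all cells within the limits. The share within the limits was thus at or under that of *Ttr* droplets in VEH and above it in LEM, and the *Ttr* droplets were the deeper ones in both libraries. Of the same *Ttr* droplets, 12 in each library also reached 15 counts, which was 24.5% (13.3 to 38.9) in VEH and 8.39% (4.41 to 14.2) in LEM, beside 10.1% and 10.5% of cells within the limits. With 5 or more of 2000 thinned counts the shares were 14.9% and 3.68%, beside 10.6% and 10.5%. In VEH the limit was thus met at least as often in these droplets as in cells within the limits, on 49 droplets. In LEM it was met less often in them, on 143 droplets.

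**Figure D1:**
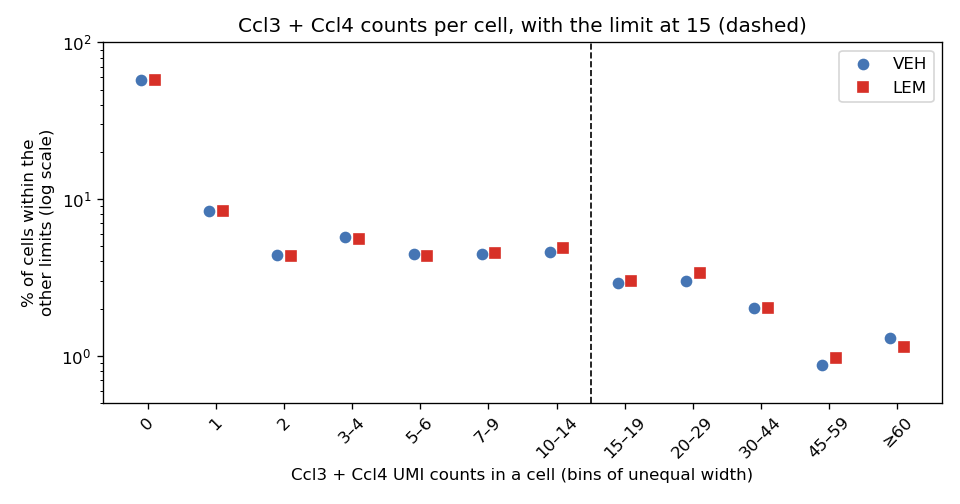
Percent of cells within the other limits (log scale) by *Ccl3* + *Ccl4* counts per cell, in bins of unequal width, for VEH (circles) and LEM (squares). The libraries lie close together in every bin, and cells are present on both sides of the limit of 15 (dashed line) without a gap.

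By the rule, the selected cells carried most of the 2 chemokine RNAs. They held 61% of all *Ccl3* and *Ccl4* counts in each library. The sum had a median of 25 counts in each library and reached 527 in VEH and 670 in LEM, and it was a median 0.362% and 0.355% of all RNA counts of the cell. The median was 13 *Ccl3* counts in both libraries, and 16 *Ccl4* counts in VEH and 15 in LEM. Most cells held both: *Ccl3* was at 0 in 9.06% of VEH and 6.97% of LEM cells, and *Ccl4* in 10.1% and 9.59%.

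The mix of the pair varied widely from cell to cell. The share of *Ccl4* in the sum had a median of 57.9% in VEH, with quartiles of 34.2% and 75%, and a median of 56.5% in LEM, with quartiles of 33.3% and 74.6%. Over all cells within the other limits, *Ccl4* was detected in 18.6% of the 12694 VEH cells without *Ccl3* and in 79.6% of the 741 with 16 or more *Ccl3* counts. The same shares were 18.3% and 79.5% in LEM. Median depth was 5676 and 7796 counts in those 2 VEH classes, so part of the range in detection went together with depth, and that part was not tested.

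The cells showed the transcripts of microglia. Summed over 9 microglia markers (among them *Ctss*, *C1qa*, *C1qb*, *C1qc*, *Cx3cr1*, *P2ry12*, *Tmem119* and *Csf1r*), they held 51859 CPM (counts scaled to a total of 1000000 in the group) in VEH and 53029 in LEM, against 53565 and 54561 in reference cells. *P2ry12* was at 0 in 0.497% and 0.483% of them. Most defining transcripts of other cell types were near absent: 0 of 9 T and NK cell, 0 of 7 neuron and 0 of 7 choroid plexus markers were detected in 1% of cells, and the neutrophil genes *S100a8* and *S100a9* and the border macrophage gene *Lyve1* had no count in the selected cells. The tested markers summed to 112 and 115 CPM for border macrophages (2 of 6, against 133 and 145 in reference cells), 9.66 and 11.0 for monocytes (3 of 7, against 10.6 and 12.1), 118 and 119 for B cells (2 of 5, against 107 and 106) and 57.4 and 64.4 for oligodendrocytes (3 of 7, against 59.1 and 61.8). Astrocyte markers (2 of 6, *Slc1a2* and *Aldoc*, which reached 1% only in the selected cells) were higher in both libraries but summed to 2.75 and 2.85 CPM against 1.49 and 1.54, and their part in the results was not tested. *Csf3r*, the 1 of 8 neutrophil markers tested, was at 326 and 359 CPM in the selected cells and 322 and 355 in reference cells, and was detected in 88.1% and 89.8% against 75.4% and 79.7%. *Pecam1*, the 1 of 6 endothelial markers tested, was at 10.5 and 8.17 CPM against 13.6 and 9.62. *Ttr* itself was at 7.58 CPM in VEH and 0 in LEM.

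The cells were more deeply sampled than the reference, which a rule on counts favours. Their median depth was 7476.5 counts in VEH and 7520 in LEM, against 5560 and 5638.5. Cells among the 10% with the highest Scrublet doublet scores of their library made up 13.7% and 12.9% of them, and cells with counts of both *Xist* and Y-linked genes 9.72% and 12.8%. In reference cells weighted to the same depth these shares were 15.2% and 17.1%, and 9.83% and 13%. The comparisons with reference cells across genes and lists were therefore made against all reference cells and against depth-weighted ones. The count classes, the cells past the DAM limit and LEM against VEH were not weighted for depth.

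The share of these cells was close in the VEH and LEM libraries. It was 9.85% in VEH (9.42 to 10.3, 1810 of 18374 cells) and 10.2% in LEM (9.80 to 10.6, 2483 of 24392). The log2 ratio of LEM over VEH was 0.05, with a counting interval of -0.04 to 0.14. Divided by sex-linked transcripts, the share was 10.8% in VEH and 11.7% in LEM among female cells, and 9.43% and 9.00% among male cells. Each of these pairs of intervals overlapped. On thinned cells with at least 5 counts out of 2000, the shares of cells within the limits were 10.6% and 10.5%. The level of the pair within the cells was 1896 CPM of *Ccl3* and 2562 of *Ccl4* in VEH and 1769 and 2303 in LEM. The same limit on the counts of the pair chose the cells in both libraries, so the closeness of these levels is partly set by the rule. A difference in level between the treatments was not tested.

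**Figure D2:**
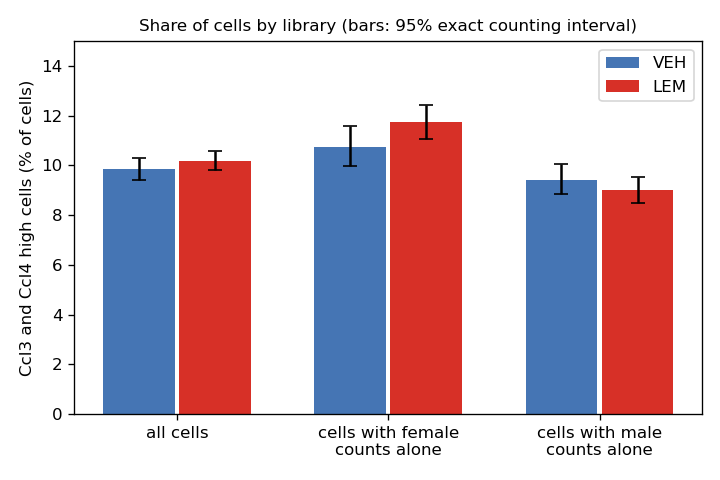
Share of *Ccl3* and *Ccl4* high cells among all cells and among cells with female or male transcripts alone, by library. Bars are single libraries (pools of 5 mice) and lines are 95% exact counting intervals. VEH and LEM stood at 9.85% and 10.2% of all cells, with LEM above VEH in female cells and below it in male cells.

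High chemokine counts were more frequent with more DAM transcripts. Cells with 15 or more *Ccl3* and *Ccl4* counts made up 8.15% of VEH and 8.56% of LEM cells with *Cst7*, *Lpl* and *Spp1* at 0. The share was 27.0% and 24.2% at 1 to 4 counts of these 3 genes, 41.3% and 50.2% at 5 to 9, and 58.0% and 56.6% at 10 or more. Median depth was higher along the same steps, from 5803 to 11701 counts in VEH and from 5870 to 12449 in LEM, so the shares were also taken from cells thinned to 2000 counts. There, 41.6% of VEH and 35.4% of LEM cells with at least 10 counts of the 3 genes kept 5 or more chemokine counts, against 10.6% and 10.5% of cells within the limits. The DAM limit removed 247 of 2076 VEH cells and 316 of 2815 LEM cells with 15 or more chemokine counts, whereas 8 and 6 failed the border macrophage limit and 12 and 12 the *Ttr* limit, with 1 and 2 cells failing more than 1 limit. Outside the DAM limit, 72.4% of the VEH and 73.2% of the LEM cells had none of the 3 transcripts, against 92.0% and 91.9% of depth-weighted reference cells.

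Against reference cells, 29 of 8251 genes detected in at least 10% of cells were at least 2-fold higher in both libraries and with both references (0.351% of genes tested), and 0 were at least 2-fold lower (0%). No test stands behind these counts, because the cells were chosen by counts of the same libraries. The 29 genes were also higher in female and in male cells of each library taken alone. Of the 29, 20 passed the detection limit only in the chemokine-high cells, which favours higher genes, so their number supports nothing, and 9 reached it in reference cells as well: *Ank*, *Adamts1*, *Ccl6*, *Myo1e*, *Ier3*, *Cd74*, *Cd83*, *Bcl2a1b* and *Ccl2*. These 9 were out of 7204 genes detected in at least 10% of reference cells. Restricted to cells without any *Cst7*, *Lpl* or *Spp1* count on both sides, 14 genes were at least 2-fold higher. Detection in either group again counted there, which favours higher genes, so this number supports nothing either.

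**Figure D3:**
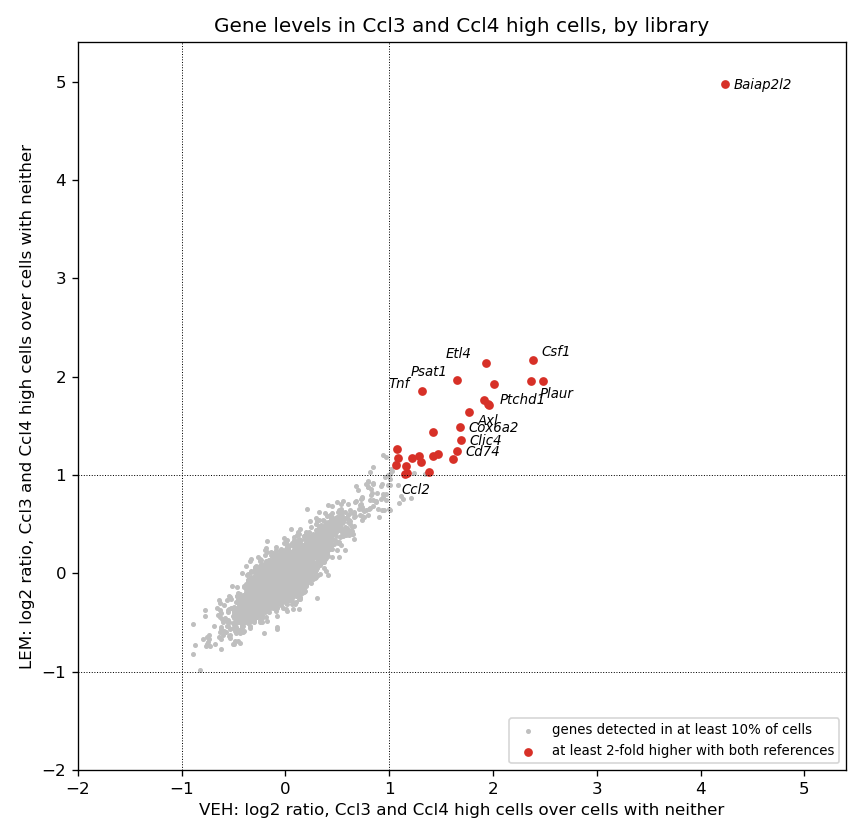
Log2 ratio of CPM in *Ccl3* and *Ccl4* high cells over all reference cells, VEH on the x axis and LEM on the y axis, 1 point per gene detected in at least 10% of cells. The 29 genes at least 2-fold higher with both references are red, *Baiap2l2* stands farthest out at 4.23 and 4.97, and dotted lines mark 2-fold.

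Among secreted signals, *Csf1*, the growth factor that sustains microglia through their receptor CSF1R, was at 78.0 CPM in the VEH and 70.5 CPM in the LEM cells, against 15 and 15.6 in reference cells. Its log2 ratio was 2.38 (2.25 to 2.51) in VEH and 2.17 (2.06 to 2.28) in LEM. It was detected in 22.8% and 22.4% of the cells against 6.09% and 6.50%, and in 9.97% and 9.55% against 2.65% and 2.63% after thinning to 2000 counts. Its receptor gene *Csf1r* was slightly lower, with log2 ratios of -0.21 and -0.22. *Tnf*, which encodes the inflammatory cytokine tumour necrosis factor, was at 66.9 CPM in VEH and 80.1 in LEM against 27.0 and 22.2, a log2 ratio of 1.31 (1.20 to 1.43) and 1.85 (1.76 to 1.95). At least 1 *Tnf* count was present in 22.4% and 20.7% of the cells and in 11.1% and 9.86% of depth-weighted reference cells. Thus most *Ccl3* and *Ccl4* high cells had no *Tnf* count at this depth.

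Over the cytokine list, 9 of 15 genes detected in at least 1% of cells were higher and 5 lower in both libraries with both references, and 4 were past 2-fold (*Csf1*, *Tnf*, *Il1b*, *Igf1*). Of all 12413 genes so detected, 25.1% were higher, 40.9% lower, 0.918% past 2-fold higher and 0.00806% past 2-fold lower, and the median log2 ratio was -0.04 in VEH and -0.04 in LEM. Of these genes, 740 reached 1% only in the chemokine-high cells, which favours genes that are higher there and genes seen through the greater depth of these cells. Among the 11673 detected in 1% of reference cells, 24.0% were higher and 0.437% past 2-fold. The cytokine median was 0.44 and 0.19. *Igf1* and *Tnfsf9* were among the 740, and without them 7 of 13 cytokines were higher, 5 lower and 3 past 2-fold, with medians of 0.31 and 0.15. *Il1b*, the gene of interleukin-1β, had log2 ratios of 1.99 and 2.07 from low levels, at 13.4 and 14.2 CPM in the cells against 3.39 and 3.37, and 3 or more *Il1b* counts were present in 0.939% and 1.09% of the cells. *Il1a* was more abundant at 295 and 305 CPM and closer to the reference, with log2 ratios of 0.31 and 0.19. The growth factor gene *Igf1*, at 2.08 and 4.08 CPM, had ratios of 2.59 and 2.87, and of 0.90 and 1.54 without the 3 DAM transcripts. *Il6* and the anti-inflammatory gene *Tgfb1* had log2 ratios of -0.09 and -0.32, and of -0.14 and -0.12.

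Other chemokine genes were higher with the pair. Of 11 tested, 8 were higher, 2 lower and 5 past 2-fold, with a median log2 ratio of 0.96 in VEH and 0.98 in LEM. *Ccl5*, *Ccl7* and *Cxcl10* reached 1% only in the chemokine-high cells. Without these, 5 of 8 were higher, 2 lower and 2 past 2-fold (*Ccl2* and *Ccl6*), with medians of 0.64 and 0.57. In cells without *Cst7*, *Lpl* or *Spp1* counts, log2 ratios were 0.97 and 0.75 for *Ccl6* and 1.28 and 1.23 for *Ccl2*. The neighbouring gene *Ccl6* was at 386 CPM in VEH and 210 in LEM against 158 and 91.7, and the monocyte attractants *Ccl2* (110 and 95 CPM against 49.8 and 47.2) and *Ccl12* (425 and 433 against 219 and 219) were close to 2-fold higher. *Cxcl10*, an interferon-induced ligand of CXCR3, had the widest ratio at 4.90 and 3.89, with 1.66 and 2.95 CPM in reference cells and 49.6 and 43.6 in the chemokine-high cells. Few cells held it, as *Cxcl10* was detected in 1.27% of VEH and 1.85% of LEM cells. *Ccl5* was at 2.28 CPM in VEH and 20.7 in LEM, against 0.856 and 5.4. *Ccl7* had ratios of 1.33 and 1.65. The ratio of *Ccl5* to reference cells was thus above 2-fold in each library, while its level differed between the libraries in both groups of cells.

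Chemokine receptor genes were mixed in direction, with more lower than higher. Summed over the 8 tested, they stood at 3707 CPM in VEH and 3579 in LEM, against 4198 and 4171 in reference cells. *Ccr1* was detected in 0.608% and 0.685% of the cells, and its ratios of 1.25 (0.48 to 1.98) and 0.03 (-0.50 to 0.54) differed between the libraries. The atypical receptor gene *Ccrl2*, which binds the attractant chemerin, was at 76.6 and 66.8 CPM against 38.5 and 33.3. Of 8 receptors tested, 3 were higher and 4 lower, with *Cxcr4* past 2-fold on 10 and 27 counts, with a median of -0.06 and -0.11. Without the 2 receptors that reached 1% only in the chemokine-high cells, *Cxcr4* and *Cxcr3*, 1 of 6 was higher and 4 lower, with medians of -0.16 and -0.18.

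Several NF-kB genes were slightly higher. Among 16 subunits and inhibitors, 10 were higher, 2 lower and none past 2-fold, with medians of 0.17 and 0.20. Of the subunit genes, *Rela* (0.03 and 0.03) and *Nfkb1* (-0.09 and -0.06) lay near 0, and *Relb* (0.35 and 0.39) and *Nfkb2* (0.33 and 0.31) were higher. Of the inhibitors and feedback regulators, *Nfkbiz* (0.48 and 0.53), *Nfkbid* (0.45 and 0.47) and *Nfkbia* (0.33 and 0.31) were higher, while *Nfkbie* (-0.26 and 0.02), *Tnip1* (-0.10 and -0.01) and *Cyld* (-0.12 and -0.14) were not. Among 23 target genes, 15 were higher, 2 lower and 5 past 2-fold, with medians of 0.22 and 0.33. *Plaur*, the urokinase receptor gene, was at 62.5 and 59 CPM against 12.1 and 15.2, the antigen-presentation gene *Cd83* at 260 and 257 against 117 and 120, and the survival gene *Ier3* at 130 and 119 against 52.6 and 54.2. The stress gene *Gadd45b* had log2 ratios of 2.04 and 1.67. *Icam1* (-0.07 and 0.03) and *Nlrp3* (-0.01 and -0.10, and 0.03 and -0.08 against depth-weighted cells) lay near 0. *Bcl2a1b* was past 2-fold, but it shares near-identical copies with *Bcl2a1a* and *Bcl2a1d* and its counts are uncertain.

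Immediate early genes, which respond within minutes to stimulation and to tissue handling, did not move as a block. Of 24, 13 were higher and 7 lower, with medians of 0.12 in VEH and 0.03 in LEM. The abundant members *Fos* (1677 and 1394 CPM), *Jun* (3443 and 2908 CPM) and *Junb* (2402 and 2205 CPM) had log2 ratios of -0.05 and -0.04, -0.08 and -0.13, and 0.05 and -0.03. *Atf3*, a stress-induced repressor gene, had ratios of 0.54 and 0.60, *Egr2* of 1.09 and 0.90, *Nr4a1* of 1.47 and 0.71, and *Maff* of 1.5 and 1.77 at 13.3 and 9.55 CPM. Among 8 MAPK phosphatase and feedback genes, 3 were higher and 3 lower, with *Dusp2* at 1.37 and 1.08. Among 13 heat shock genes, 10 were higher and 3 lower, with medians of 0.13 and 0.18. The share of the high *Ccl3* and *Ccl4* counts that arose during dissociation was not tested.

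DAM genes that the rule did not use were higher without exception among those tested. All 23 were higher in both libraries with both references, 6 past 2-fold, with medians of 0.71 and 0.59. *Apoe*, the lipid carrier gene, was at 1594 CPM in the VEH and 2421 in the LEM cells against 971 and 1607, *Cd63* at 674 and 823 against 286 and 407, and *Axl*, a receptor for apoptotic cells, at 15.1 and 21.7 against 4.42 and 6.95. The other genes of the list past 2-fold were *Ch25h* (log2 ratios of 4.65 and 4.10), *Lgals3* (4.23 and 3.14), *Lilrb4a* (2.80 and 2.78), *Fabp5* (2.21 and 1.66) and *Ank*. The levels of the first 4 were low, at 2.75 to 11.7 CPM in VEH and 2.9 to 19.2 in LEM. *Ch25h*, *Lgals3* and *Lilrb4a* reached 1% only in the chemokine-high cells. Without them all 20 were higher, 3 past 2-fold, with medians of 0.52 and 0.52. In cells with *Cst7*, *Lpl* and *Spp1* at 0 on both sides, with the reference weighted for depth, the medians were 0.34 and 0.39. These medians cover all 23 genes, *Ch25h*, *Lgals3* and *Lilrb4a* included, which favours higher values. Medians without those genes were not taken there. *Baiap2l2*, the gene with the highest ratios of the 29, was at 41.2 and 30.4 CPM against 2.19 and 0.969, and its ratio without any of the 3 DAM transcripts was 3.96 and 4.33.

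Homeostatic microglia genes were lower by small amounts. Of 24, 0 were higher and 19 lower, none past 2-fold, with medians of -0.20 and -0.22. The purinergic receptor gene *P2ry12* was at 3801 and 3637 CPM against 4612 and 4428, *Tmem119* at 1774 and 1817 against 2233 and 2269, and the regulator gene *Sall1* at 291 and 305 against 358 and 369. *Cst3* (0.03 and 0.02) lay near the reference. The 10 lowest genes of all had log2 ratios between -0.98 and -0.63, among them *Il7r* (51.4 and 57.4 CPM against 86.4 and 94.1), *Bank1* (101 and 110 against 168 and 170), *Gpr165* (28.6 and 27.0 against 52.8 and 47.6) and *Slco4a1* (33.5 and 34.8 against 59.3 and 68.6).

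Interferon-response genes were higher: 17 of 19 were higher in both libraries with both references and 0 lower, with medians of 0.91 and 1.03 (0.86 and 0.98 without *Rsad2*, which reached 1% only in the chemokine-high cells). *Ifit3*, an interferon-induced antiviral gene, was at 37.2 and 40.0 CPM against 15.3 and 16.9, and *Rsad2*, 1 of 2 past 2-fold with both references beside *Ifit1* (13.9 and 13.4 CPM against 3.47 and 3.61), at 6.11 and 6.65 against 1.01 and 1.26. A strong response was found in few cells, as 5 or more counts of *Ifit3*, *Isg15* and *Irf7* together were present in 3.15% (2.39 to 4.06) of VEH and 3.75% (3.03 to 4.57) of LEM cells, against 1.61% and 1.61% of depth-weighted reference cells. MHC class I genes were higher in 8 of 9 cases, with medians of 0.34 and 0.39.

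MHC class II genes were higher, more so in cells with DAM transcripts. Of 6 genes, 5 were higher and 1 lower, with medians of 1.01 and 0.51 against all reference cells and 1.07 and 0.37 against depth-weighted ones. Without *Cst7*, *Lpl* or *Spp1* counts, also weighted for depth, the medians were 0.36 and 0.13. Among the 4 detected in 1% of reference cells, 3 were higher and 1 lower, with medians of 0.67 and 0.45. *Cd74*, the invariant chain gene, was at 261 and 188 CPM against 83.0 and 79.8. Its level was 128 and 113 CPM in the selected cells with *Cst7*, *Lpl* and *Spp1* at 0, 486 and 247 with 1 to 4 counts of them and 808 and 683 with 5 to 9. At least 10 counts of *H2-Aa*, *H2-Ab1*, *H2-Eb1* and *Cd74* together were present in 5.91% (4.87 to 7.10) of VEH and 3.75% (3.03 to 4.57) of LEM cells, against 0.843% and 0.902% of depth-weighted reference cells.

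Metabolic genes showed higher glycolysis transcripts. Of 14 tested, 12 were higher and 2 lower, none past 2-fold. The medians were 0.51 and 0.42 against all reference cells and 0.44 and 0.38 against depth-weighted ones. Without *Cst7*, *Lpl* or *Spp1* counts, also weighted for depth, the medians were 0.25 and 0.20. The higher genes included the lactate exporter gene *Slc16a3* (56.8 and 50.6 CPM against 31.7 and 27.0), the hypoxia regulator gene *Hif1a* (147 and 142 against 83.6 and 84.7) and *Ldha* (207 and 208 against 139 and 135). The hexokinase genes *Hk1* and *Hk2* were among the lower ones. Other genes past 2-fold were *Psat1* of serine synthesis (log2 ratios of 1.66 and 1.97), the muscle-type cytochrome oxidase gene *Cox6a2* (1.68 and 1.49), the pyrophosphate transporter gene *Ank* (1.91 and 1.76), the extracellular protease gene *Adamts1* (1.47 and 1.21), *Etl4* (1.93 and 2.14), *Ptchd1* (2.01 and 1.93), *Clic4* (1.69 and 1.36), *Adssl1* (1.43 and 1.43), *Myo1e* (1.42 and 1.20) and *Nceh1* (1.22 and 1.17). In cells without *Cst7*, *Lpl* or *Spp1* counts, weighted for depth, some of these were under 2-fold in at least 1 library. They were *Psat1* (0.89 and 1.14), *Etl4* (0.91 and 1.21), *Cox6a2* (1.17 and 0.96), *Adssl1* (0.97 and 0.94), *Myo1e* (0.998 and 0.70) and *Nceh1* (0.74 and 0.90). *Ank*, *Adamts1*, *Ptchd1* and *Clic4* stayed past 2-fold there. The olfactory receptor genes *Olfr110* and *Olfr111* were also past 2-fold, but they lie next to each other, are close copies and may share reads.

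**Figure D4:**
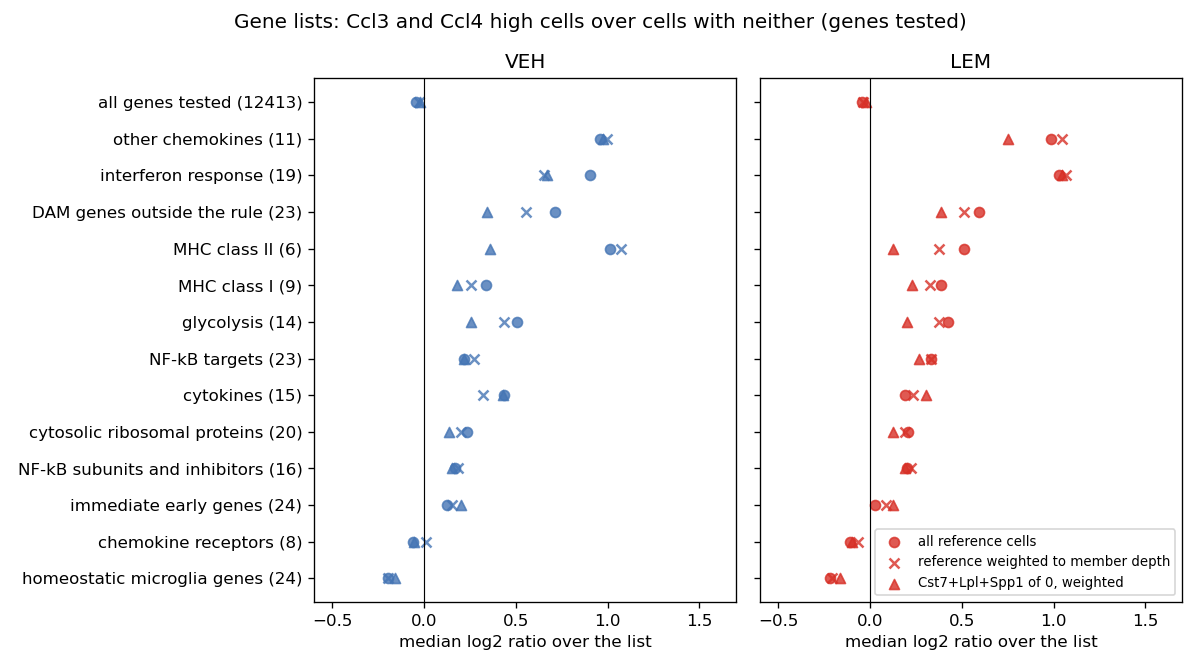
Median log2 ratio of each gene list in *Ccl3* and *Ccl4* high cells over reference cells, with the number of genes tested in brackets, for VEH (left) and LEM (right). Circles use all reference cells, crosses reference cells weighted to the same depth, and triangles cells with *Cst7*, *Lpl* and *Spp1* at 0, also weighted. The DAM, MHC class II and glycolysis medians were lower without the 3 DAM transcripts in both libraries, as was the other-chemokine median in LEM (0.75), while the interferon median in VEH was 0.65 with the weighted reference alone and 0.67 without the transcripts.

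The genes differed in how they went with the chemokine counts. *Csf1* was at 15 CPM in VEH cells without either chemokine, 20.8 at 1 to 4 counts, 26.1 at 5 to 14, 44.4 at 15 to 29, 83.3 at 30 to 59 and 191 at 60 or more. The LEM levels were 15.6, 22.7, 27.1, 55.5, 70.3 and 143 CPM. *Plaur* went from 12.1 to 162 CPM in VEH and from 15.2 to 152 in LEM over the same steps, and *Tnf* from 27.0 to 121 and from 22.2 to 213.5. The classes are cut on the counts of the rule, and these genes were named because they were higher in the selected cells, so the order of the levels is a description. *Il7r* went from 86.4 to 33.2 CPM in VEH and from 94.1 to 36.9 in LEM. Median depth was 5560 counts at the first VEH step and 8885 at the last.

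Cells past the DAM limit, which the rule left out, gave the same measures in cells not used for the comparison. Among them, cells with 15 or more chemokine counts (246 in VEH, 314 in LEM) held 48.8 and 46.6 CPM of *Tnf* against 10.4 and 12.4 in those with fewer (179 and 237). *Adamts1* was at 449 and 387 CPM against 164 and 212, *Ier3* at 243 and 140 against 82.8 and 63.2, *Csf1* at 318 and 280 against 162 and 168, and *Plaur* at 206 and 209 against 115 and 120. By contrast, *Axl* was at 137 and 121 CPM against 129 and 135, *Cd74* at 2478 and 1754 against 2529 and 2122, and *Baiap2l2* at 277 and 213 against 257 and 223. *Tnf*, *Adamts1* and *Ier3* were thus higher with the chemokines on either side of the DAM limit, while *Axl*, *Cd74* and *Baiap2l2* were many-fold higher past it with or without them. *Csf1* and *Plaur* showed both patterns. They were higher with the chemokines on either side of the limit. Past it, cells with fewer chemokine counts also held more of them than the selected cells (78.0 and 70.5 CPM of *Csf1*, 62.5 and 59 of *Plaur*).

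**Figure D5:**
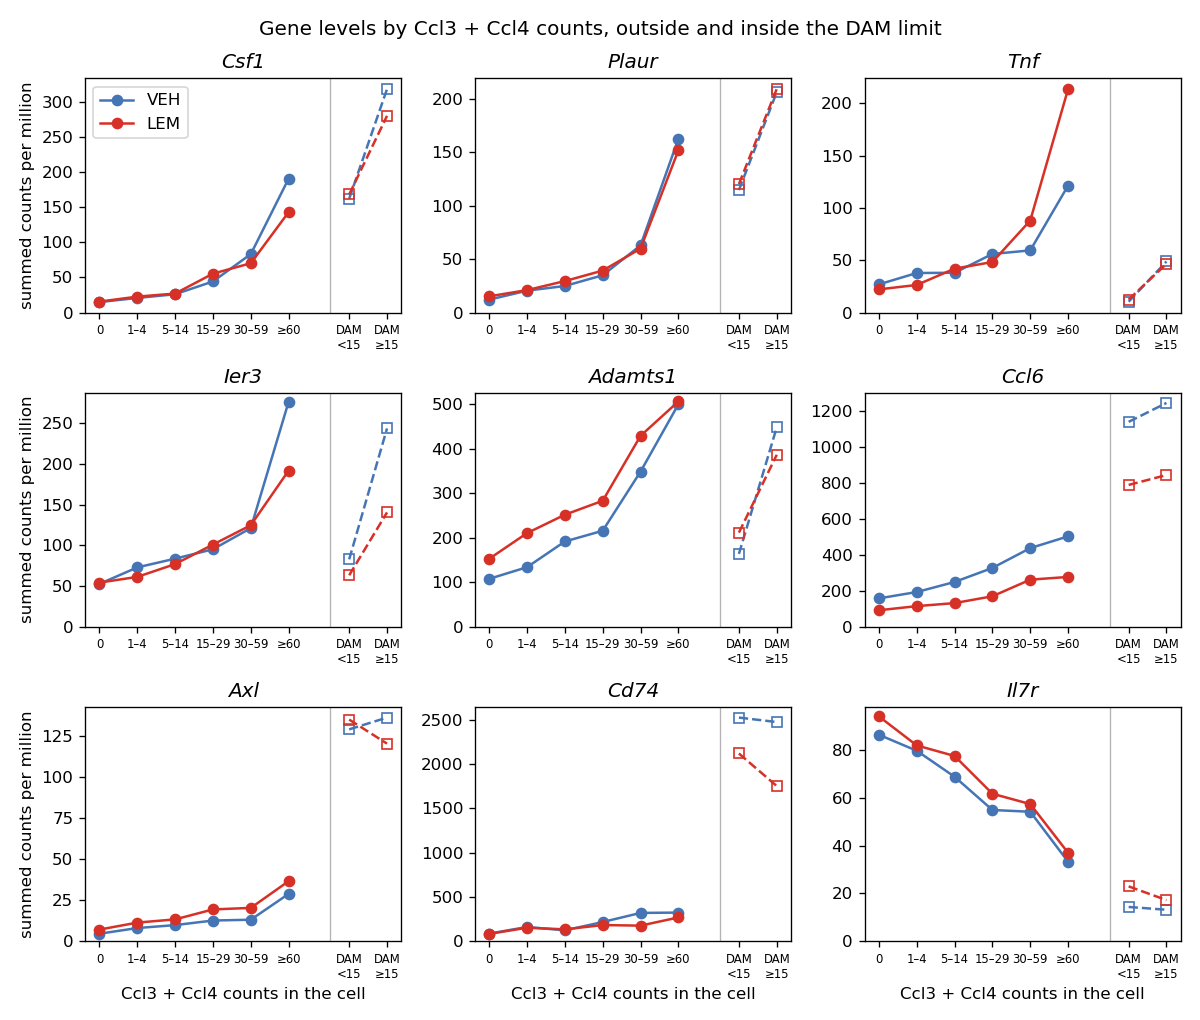
Summed CPM of 9 genes by the *Ccl3* + *Ccl4* counts of the cell, outside the DAM limit (filled circles, 6 count classes) and past it (open squares, under 15 and 15 or more). Blue is VEH and red LEM, each 1 library. *Tnf* was at 10.4 and 12.4 CPM in DAM cells with few chemokine counts and at 48.8 and 46.6 in those with many, while *Axl* and *Cd74* were high in both.

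Cells with 1 of the 2 chemokines at 0 differed from cells with both, and not in the same way for every gene. *Csf1* was at 88.0 CPM in the 1463 VEH cells with both chemokines, 31.6 in the 164 with *Ccl3* at 0 and 35.8 in the 183 with *Ccl4* at 0, and at 76.0, 24.8 and 52.4 CPM in the 2072, 173 and 238 LEM cells. *Plaur* was at 71.1, 17.4 and 29.8 CPM in VEH and 64.6, 24.1 and 32.9 in LEM, and *Baiap2l2* at 46.1, 11.1 and 27.1 in VEH and 32.9, 2.92 and 27.7 in LEM. These 3 genes were thus lowest with *Ccl3* at 0, though for *Csf1* in VEH the 2 small classes were close. No intervals were taken for these classes. The *Baiap2l2* levels with *Ccl3* at 0, 11.1 and 2.92 CPM, were low values from small classes, so their order is uncertain. *Ier3* had the opposite order of the small classes, at 139, 126 and 64.9 CPM in VEH and 119, 152 and 98.6 in LEM. *Tnf* was at 69.9, 60 and 48.0 CPM in VEH and 87.9, 38.0 and 38.5 in LEM. The genes were picked as examples after their values were seen, and the chemokine sums of the classes were not matched.

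Between the treatments, the 15 genes named here differed in the same direction in *Ccl3* and *Ccl4* high cells and in reference cells. Of 8253 genes detected in at least 10% of the cells of either library, 9 were at least 2-fold higher in LEM with the same sign in both sexes (0.109%), and 9 were at least 2-fold lower on the same terms (0.109%). The tubulin genes *Tubb2b* (29.3 CPM in VEH, 6.27 in LEM) and *Tubb2a* (62.1 and 18.5), close copies that may share reads, had log2 ratios of -2.23 and -1.74, against -2.11 and -1.84 in reference cells. *Cfap77*, a cilium gene, was at 559 and 151 CPM, a log2 ratio of -1.89 (-1.95 to -1.83) against -1.83 in reference cells. The glycolysis gene *Gapdh* was at 400 and 908 CPM, a ratio of 1.18 (1.14 to 1.22) against 1.24.

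Several of these values were uneven between the sexes, which are different animals of each pool. *Qpct* had a log2 ratio of 0.50 in female and 4.61 in male cells, *Adcy8* of 0.30 and 2.88, and *Ets1* of -0.77 and -3.28. *Gapdh* had 1.78 and 0.70, and *Cfap77* -2.45 and -1.45. *Agrp* had -2.11 in female and -0.01 in male cells. *Cdk5rap1* (1.47 and 1.68), *Pira2* (1.13 and 1.78), *Hist1h4n* (0.58 and 1.43), *Etv4* (0.41 and 1.37), *Pianp* (-2.86 and -1.59), *Khdrbs3* (-0.64 and -2.09) and *Hist1h2ao* (-1.27 and -0.77) complete the genes named, and the histone genes are close copies of others.

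Within the *Ccl3* and *Ccl4* high cells, DAM genes were mostly higher in LEM than in VEH. Of 23, 20 were higher and 3 lower, with a median log2 ratio of 0.19, beside 54.6% higher and 45.4% lower and a median of 0.02 over 12413 genes. *Apoe* had a ratio of 0.60, and 10 or more *Apoe* counts were present in 33.4% (31.2 to 35.6) of VEH and 52.0% (50.0 to 53.9) of LEM cells. The shares were 16.5% and 31.0% of all reference cells and 25.5% and 44.8% of depth-weighted ones. All 6 MHC class II genes were lower in LEM, with a median of -0.63. Interferon genes were higher in 18 of 19 cases with a median of 0.24, and immediate early genes lower in 20 of 24 with a median of -0.25. The cytokine median was 0.08, with *Tnf* at 0.26, *Il1b* at 0.08 and *Csf1* at -0.15. In reference cells *Tnf* was at -0.28 and *Csf1* at 0.06, and in the selected cells *Csf1* was at 0.50 in female and -0.53 in male cells, so neither gene had 1 direction throughout. For the DAM, interferon, MHC class II and immediate early lists, reference cells showed the same directions as the selected cells, from 23565 CPM in VEH to 26427 in LEM for DAM genes (33319 to 36977 in the selected cells), 928 to 1463 for interferon genes (1174 to 1871), 320 to 268 for MHC class II genes (564 to 400) and 21465 to 19699 for immediate early genes (21589 to 18940). All of these compare 2 pools.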

How the data were processed

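The authors deposited 1 table of UMI counts, all whole numbers, 32285 genes by 42766 cells, from 10x 5′ libraries counted with Cell Ranger 8.0.0 on its mm10 reference. Their methods name SoupX 1.6.2 for free RNA, and whether its correction is in the counts is not stated. All cells met their filters of 500 genes, 20000 counts and 2.5% mitochondrial counts. Totals were 116229678 counts in VEH and 160752298 in LEM, with medians of 5971 and 6034 per cell. Cell names carry no barcodes, so barcodes shared between libraries could not be counted.

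Counts were summed over the cells of a group and scaled to CPM (counts scaled to 1000000). Log2 ratios carry exact conditional binomial intervals, shares Clopper-Pearson intervals. Reference cells were also weighted over 20 depth bins to the depth of the selected cells. Log2 ratios and list medians for cells without *Cst7*, *Lpl* or *Spp1* counts use reference cells weighted in this way. Genes had to be detected in 10% of either group, and list genes in 1%. With 1 library per treatment no test was run. Named genes were the genes of the rule, the 20 highest and 10 lowest ratios nearest to 0 over libraries and references (same sign in both sexes, predicted and mitochondrial genes left out), list genes past 2-fold, *Ccr1*, and the 8 highest and 8 lowest of LEM over VEH, with other list genes as examples; a few genes that the rule names are not reported here. The selected cells and the gene lists were chosen with earlier results of these data known. Scrublet (scanpy 1.11.5) scored doublets. Its automatic threshold called 0% of VEH and 12.8% of LEM cells, so the 10% of cells with the highest scores per library were taken instead. Simulated counts covered 8110 genes, with 200 changed by 1.5 on the log2 scale, which is past the 2-fold limit. The comparison with reference cells recovered 100% of the 200 with 0 false calls. The simulated counts were drawn for whole groups without spread between cells, so the 0 false calls do not cover genes whose counts lie in few cells. Smaller shifts, spread between pools and the choice of cells by their own counts were not tested there either.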

Additional observations from a re-analysis of the deposited data

Results flagged for a closer look

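The share of *Ccl3* and *Ccl4* high cells went opposite ways in the sexes. The log2 ratio of LEM over VEH shares was 0.12 (0.125, with a counting interval of -0.02 to 0.27) in female cells and -0.07 (-0.0673, with an interval of -0.20 to 0.07) in male cells. Both intervals hold 0. Each sex of a library is part of 1 pool, so the difference between the sexes was not tested.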

How the results depend on the processing

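The share ratio of LEM over VEH, 0.05 as reported, lay within its counting interval under 7 alternatives (-0.03 with a limit of 30 counts and -0.02 on thinned cells among them) and moved to -0.0417 with a limit of 0.25% of the counts of a cell and to -0.0673 in male cells alone. The 29 genes at least 2-fold higher became 19 with a limit of 10 chemokine counts, 63 with 30, 14 without *Cst7*, *Lpl* or *Spp1* counts, 8 against cells with 1 to 4 chemokine counts, 114 with detection in 1% of cells and 93 at 1.5-fold. With detection required in 10% of reference cells, an alternative chosen after seeing the data, the number was 9. The 0 genes at least 2-fold lower became 1 without doublets, 3 with a limit of 30 counts, 1 with 0.25% of counts, 1 with detection in 1% of cells and 17 at 1.5-fold. The 9 genes higher and 9 lower in LEM became 79 and 73 with detection in 1% of cells and 34 and 40 at 1.5-fold. All other alternatives left these counts within 1.5 times. Of the 66 named gene values, none changed sign with depth-weighted cells, median-of-ratios scaling or cells without the DAM transcripts, and 15 that were past 2-fold were under it in the last of these, which was added after seeing the data. Of the 60 list medians, 4 changed sign with depth-weighted cells, 7 with median-of-ratios scaling and 5 without the DAM transcripts. Of the 58 that could be taken over genes detected in 1% of reference cells, also added after seeing the data, 0 changed sign and 2 were no longer past 2-fold. No paired analysis was possible because the labels carry no replicate numbers and each treatment is 1 library.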

Other observations

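Several other gene groups differed by small amounts between *Ccl3* and *Ccl4* high cells and cells with neither. All 9 genes of the mitochondrial genome were higher in both libraries with both references, with medians of 0.21 in VEH and 0.20 in LEM, and the median mitochondrial share of counts was 0.692% and 0.725% against 0.587% and 0.619%. All 20 ribosomal protein genes listed were higher in both libraries with both references, with medians of 0.23 in VEH and 0.21 in LEM, and 16 of 20 lysosome genes, with medians of 0.20 and 0.21. The complement receptor genes *C3ar1* (log2 ratios of 0.87 and 0.73) and *C5ar1* (0.51 and 0.62) stood above the other pattern recognition and danger receptors, of which 8 of 19 were higher and 7 lower, with *Tlr2* at 0.37 and 0.48 and *Tlr4* at -0.13 and -0.12. Of 8 glucocorticoid-response genes, 3 were higher and 4 lower, with medians of -0.10 and -0.03, and *Tsc22d3* (-0.49 and -0.69) and *Ddit4* (-0.54 and -0.65) were among the lower ones.

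Proliferation genes depended on the reference. Their median log2 ratio was 1.00 in VEH and 0.59 in LEM against all reference cells, and 0.36 and -0.36 against cells of the same depth, and 6 of the 13 genes reached 1% only in the chemokine-high cells. Cells with 3 or more counts of *Mki67* and *Top2a* made up 1.38% (0.896 to 2.03) of VEH and 1.01% (0.653 to 1.48) of LEM *Ccl3* and *Ccl4* high cells, against 0.407% and 0.427% of all reference cells and 0.995% and 1.36% of depth-weighted ones.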
